A study of Mus musculus with 52 samples.

Results

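The genes described here carry out or control the oxidation of fatty acids in mouse liver, and many are textbook targets of PPAR-alpha, a nuclear receptor of hepatocytes. Of 42 listed genes, 39 had a probe set annotated to that gene alone and were measured, out of 18194 genes tested. The other 3, Acsl1, Cyp4a10 and Ucp2, had no such probe set. Where a gene had several probe sets the brightest was used, and 21 of the 39 had more than 1 probe set.

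Liver RNA came from male C57Bl6/N mice, stated to be 8 to 12 weeks old, fed standard diet without restriction, and was hybridized to 52 expression arrays. The control group was 5 arrays of untreated mice, and 47 arrays covered 11 times after partial hepatectomy, in which most of the liver is cut away and the remnant regrows. The times were 1, 6, 12, 24 and 48 hours, 3 and 4 days, 1, 2 and 4 weeks and 3 months. Most groups held 4 arrays, and the exceptions were 1 hour and 3 months with 3 arrays each, 24 hours with 11 and 2 weeks with 2. Sham-operated livers were not analysed here, and the sources used here give no time of day for the sampling. All times were compared with the same untreated group, and no age at sampling was used for single groups. Age and time after the operation can therefore not be told apart at the late times. The labels do not say that the arrays of a group are separate mice, so the tests measure spread among these samples alone, which may be technical.

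Values are log2 expression, and a change is a difference of group means on that scale, given ± SE. All 52 arrays entered one limma fit, p-values had a Benjamini-Hochberg adjustment over the 18194 genes of a comparison, and genes with an adjusted p under 0.05 are termed called. The words rose and fell are used here for called changes alone. Probes differ in brightness, so the levels of different genes were not compared with each other.

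In a fasting liver, fatty acids released from fat tissue enter the hepatocyte, are activated to acyl-CoA, cross into the mitochondrion as carnitine esters and are shortened there step by step, and the acetyl-CoA that results is turned into ketone bodies. Peroxisomes shorten the very long chains, and the CYP4A enzymes of the endoplasmic reticulum attack the far (omega) end. PPAR-alpha, which binds fatty acids and pairs with RXR on direct repeats of a hexamer in DNA, switches on genes at each of these steps. The liver remnant is known to fill with fat droplets for a time in the first days after resection.

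Hepatocyte markers were bright on every array: the mean over 11 hepatocyte markers, among them Alb, Apoa1 and Hnf4a, lay between 12.30 and 12.70 on all 52. The controls differed technically from the operated groups. Their hybridization control transcripts averaged 10.85 ± 0.29 (SD, n = 5), against group means of 9.73 to 10.38 after the operation, and the Gapdh 3' minus 5' difference, which grows with RNA breakdown, averaged 1.61 ± 0.57 (SD, n = 5) against 0.65 to 1.10. Replicates 9, 10 and 11 of the 24-hour group carried Xist, which is transcribed from the inactive X of female cells, at 9.12 to 9.48 although labelled male, and the other arrays had it at 2.51 to 3.81. Over the 2000 most variable genes, 4-week replicate 1 had a correlation of 0.94 to the mean of the 12-hour arrays and of -0.50 to the rest of its own group, 1-week replicate 4 correlated at -0.28 with its group, and control replicate 1 had the largest Gapdh difference of the controls at 2.56. 24-hour replicate 1 had a Gapdh difference of 2.32. These 7 arrays (control replicate 1, 24-hour replicates 1, 9, 10 and 11, 1-week replicate 4 and 4-week replicate 1) are called the doubted arrays here, and the counts of called genes are given with and without them, as are changes of single genes where the text says so. Arrays outside the 7 could also lie nearer to another group. For example, 24-hour replicates 2 and 5 each correlated at 0.20 with their own group, and at 0.57 and 0.55 with the 48-hour mean. 4-day replicate 4 correlated at 0.20 with its group and at 0.29 with the 1-week mean.

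Promoter sequence was taken from RefSeq, build GRCm38.p6, as the 250 bases before each gene's start, and 33 of the 39 genes had an entry. On both strands the direct repeat AGGNCANAGGNCA, where N is any base, occurred in 0.338% of 32851 such windows of all genes and in those of 1 of the 33 genes, Fabp1, with its first base at position -67 from the gene start. The single hexamer AGGTCA, which can lie within the direct repeat, occurred in 14% of all windows and in those of 8 genes, Acadm, Acadvl, Cd36, Cpt1a, Creb3l3, Fabp1, Plin2 and Slc27a2. A match describes these letters and this window, and was not used as evidence of binding. Shown 5′ to 3′ on the strand of the gene, with matches in capitals, are the window with the direct repeat (Fabp1, chr6:71199629-71199878, plus strand), a pair with the single hexamer from genes that rose early (Plin2, chr4:86670060-86670309, minus strand, and Cpt1a, chr19:3323051-3323300, plus strand), and the windows of 3 genes with large early rises and neither pattern (Slc22a5, chr11:53891704-53891953, Pdk4, chr6:5496279-5496528, and Pex11a, chr7:79743132-79743381, all minus strand).
Fabp1: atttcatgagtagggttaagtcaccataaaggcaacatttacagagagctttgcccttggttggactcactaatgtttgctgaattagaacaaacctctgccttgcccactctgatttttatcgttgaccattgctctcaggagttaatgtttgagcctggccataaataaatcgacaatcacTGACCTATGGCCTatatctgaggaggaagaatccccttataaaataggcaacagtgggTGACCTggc
Plin2: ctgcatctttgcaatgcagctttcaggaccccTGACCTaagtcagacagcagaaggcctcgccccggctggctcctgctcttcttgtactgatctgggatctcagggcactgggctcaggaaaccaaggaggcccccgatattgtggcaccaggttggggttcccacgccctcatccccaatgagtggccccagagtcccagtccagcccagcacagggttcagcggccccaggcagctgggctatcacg
Cpt1a: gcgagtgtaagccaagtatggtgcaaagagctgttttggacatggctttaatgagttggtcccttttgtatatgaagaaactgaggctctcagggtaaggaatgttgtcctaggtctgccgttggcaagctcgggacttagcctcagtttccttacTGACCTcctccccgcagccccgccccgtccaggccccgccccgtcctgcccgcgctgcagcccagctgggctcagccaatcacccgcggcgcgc
Slc22a5: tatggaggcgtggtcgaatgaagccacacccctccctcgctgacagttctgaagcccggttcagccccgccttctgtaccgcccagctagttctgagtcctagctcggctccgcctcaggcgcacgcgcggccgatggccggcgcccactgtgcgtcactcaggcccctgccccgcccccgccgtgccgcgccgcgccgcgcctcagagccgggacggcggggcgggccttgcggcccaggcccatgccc
Pdk4: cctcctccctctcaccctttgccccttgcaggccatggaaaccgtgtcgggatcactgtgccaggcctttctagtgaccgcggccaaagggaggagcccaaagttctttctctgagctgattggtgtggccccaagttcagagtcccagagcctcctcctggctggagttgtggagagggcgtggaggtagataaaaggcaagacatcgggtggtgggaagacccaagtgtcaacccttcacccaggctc
Pex11a: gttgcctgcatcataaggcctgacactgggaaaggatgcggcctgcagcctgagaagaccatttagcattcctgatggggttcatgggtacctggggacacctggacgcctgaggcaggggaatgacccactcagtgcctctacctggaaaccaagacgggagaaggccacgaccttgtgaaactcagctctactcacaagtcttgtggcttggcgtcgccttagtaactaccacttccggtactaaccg

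These windows differ in composition, from 42.8% G and C in Fabp1 to 73.6% in Slc22a5, which also holds 30 CpG dinucleotides against 2 in Fabp1. Pdk4 has 58.8% G and C, Cpt1a 59.6%, Plin2 61.6% and Pex11a 55.6%.

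Over the whole course 29 of the 39 genes differed between the groups by the moderated F test over the 11 comparisons with control, where 64.6% of all genes did. Single comparisons called 24 of the 39 higher at 1 time or more and 7 lower, with 0 called in both directions and 8 never called: Crot, Acads, Acaa2, Eci1, Ehhadh, Bdh1, Fgf21 and Vnn1. Of those 8, Crot and Eci1 were also not called without the 7 doubted arrays, and the other 6 were then called at 1 time or more. By their values and calls the genes took several courses, which are not exclusive. In Pdk4, Slc22a5, Plin2 and Pex11a the rise was highest at 6 and 12 hours. A rise was called at 8 or more of the 11 times in Hadhb, Eci2, Etfdh, Cyp4a14, Decr1, Acadm, Creb3l3 and Angptl4. Of these, Creb3l3, Eci2 and Angptl4 were also highest at 6 and 12 hours. For Cd36 a rise was called at 24 hours, 3 days, 4 days, 1 week and 3 months and not before 24 hours. Ppara, the receptor itself, was called lower at 24 hours and 3 days. Of the 136 calls of these genes against the controls, 91 were kept without each array in turn, 45 were lost without at least 1 array and 35 of those were lost without control replicate 1.

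**Figure D1:**
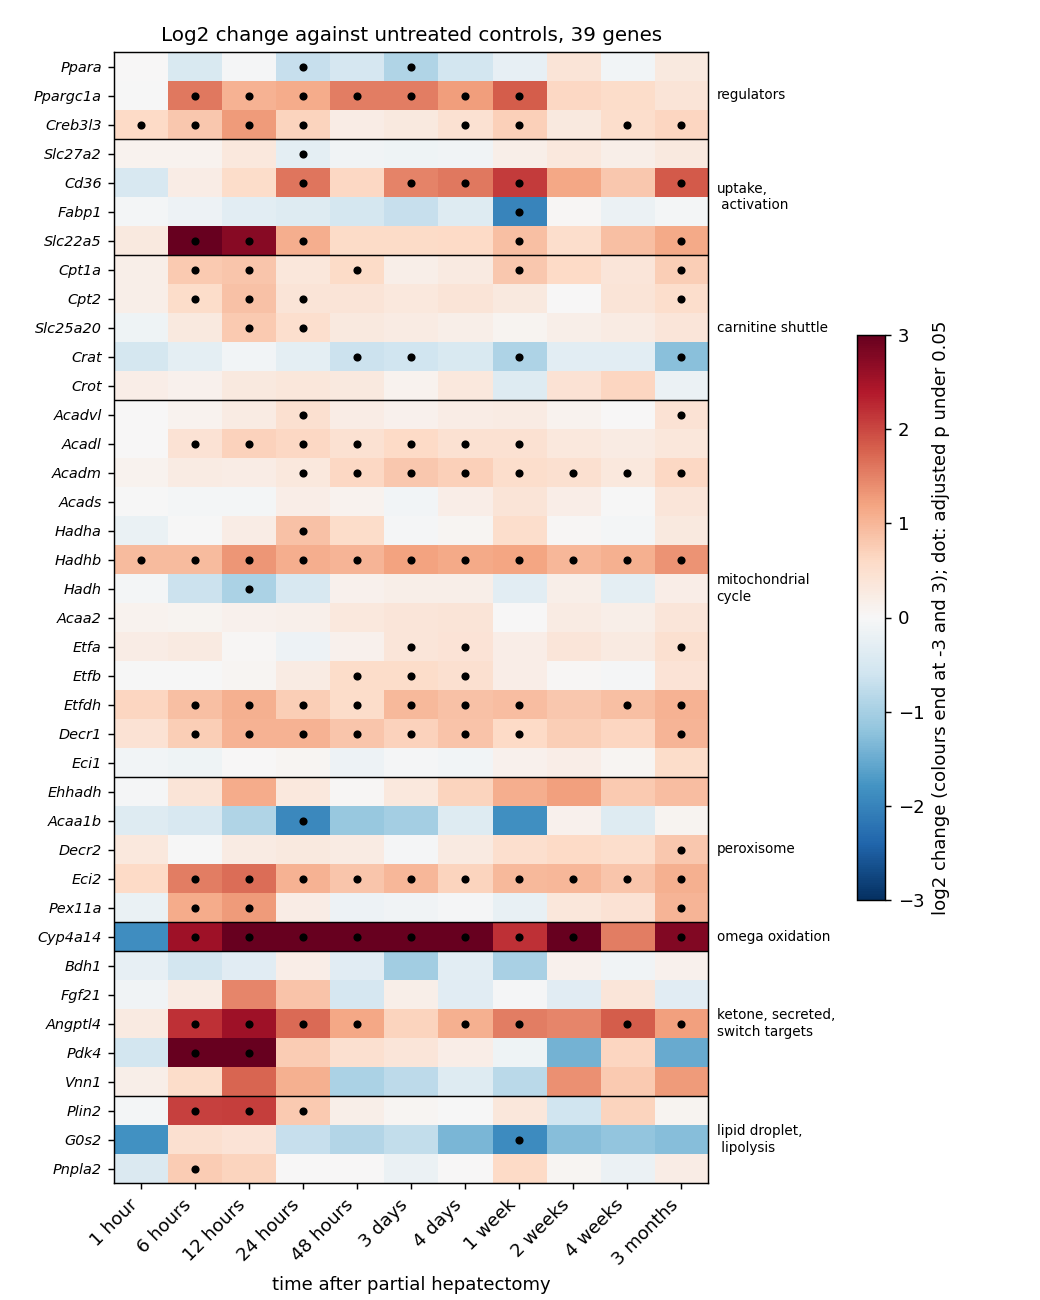
Log2 change against the untreated controls of 39 genes (rows, in role groups) at 11 times after partial hepatectomy (columns, not to scale), with a dot where the adjusted p was under 0.05 and colours that end at -3 and 3. Slc22a5 and Pdk4 are darkest at 6 and 12 hours. Cyp4a14 is dark from 6 hours to 4 days and again at 2 weeks and 3 months. Hadhb has a dot at all 11 times, and dots on blue are few (Ppara, Slc27a2, Fabp1, Crat, Hadh, Acaa1b and G0s2).

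At 1 hour 2 genes rose and 0 fell, where 3.67% of all genes rose, 1.37% fell and 5.04% did either, and 4 of the 39 were higher and 3 lower at an unadjusted p under 0.05. At 6 hours 16 rose and 0 fell, with 18 and 1 at an unadjusted p under 0.05, where 11.4% of all genes rose, 10.5% fell and 22% did either. At 12 hours 16 rose and 1 fell, where 17.9% and 12% of all genes did, 29.9% in all. The median change of the 39 was -0.02 at 1 hour, 0.29 at 6 hours and 0.66 at 12 hours, and that of all genes was 0.01, -0.02 and -0.04. Without the doubted arrays 2 rose and 2 fell at 1 hour, 16 rose and 1 fell at 6 hours, and 19 rose and 2 fell at 12 hours. Of all genes 4.3%, 23.8% and 29.8% were then called in either direction. The 1-hour count was 0 without 1-hour replicate 1 and 1 without 1-hour replicate 3 or control replicate 1.

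At 24 hours 17 rose and 3 fell, where 18.9% and 12.8% of all genes did, 31.7% in all. At 48 hours 11 rose and 1 fell (17.4% and 13.4% of all genes, 30.8% in all), and at 3 days 11 rose and 2 fell (21.7% and 17.7%, 39.4% in all). At 4 days 13 rose and 0 fell (18.8% and 14.1%, 32.8% in all), with 14 higher and 2 lower at an unadjusted p under 0.05. So the share of the 39 that rose was 43.6% at 24 hours and 28.2% at 48 hours and at 3 days, which is nearer to the share of all genes. With each array centred on its own median 12 rose and 0 fell at 3 days and, after a further quantile normalization, 7 rose and 2 fell at 4 days. Those fits called 37.2% and 30.2% of all genes at these times. Without the doubted arrays 19 rose and 3 fell at 24 hours, 10 and 4 at 48 hours, 13 and 4 at 3 days, and 14 and 3 at 4 days. Of all genes 24.6%, 29.3%, 39.2% and 31.5% were then called in either direction. Without control replicate 1 alone the 48-hour count was 6.

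At 1 week 13 rose and 3 fell (21.8% and 14.9% of all genes, 36.7% in all). At 2 weeks, with 2 arrays, 4 rose and 0 fell (2.8% and 0.605%, 3.41% in all), and at 4 weeks 6 rose and 0 fell (9.33% and 5.39%, 14.7% in all). At an unadjusted p under 0.05 the counts at 2 weeks were 11 higher and 0 lower, and at 4 weeks 13 and 0. At 3 months 16 rose and 1 fell (16.7% and 13.4%, 30.1% in all), so the last group had as many rises as the 6-hour group. Without the doubted arrays 21 rose and 1 fell at 1 week, 3 and 0 at 2 weeks, 1 and 1 at 4 weeks, and 16 and 1 at 3 months. Hadhb rose and G0s2 fell in that 4-week comparison (0.61 and -1.95). The 2-week count was 0 without either of its arrays, 1 without control replicate 1 and 2 without control replicate 3.

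The comparisons between times do not use the controls. From 1 to 6 hours 10 of the 39 rose and 0 fell (13 and 0 at an unadjusted p under 0.05), where 4.45% and 6.44% of all genes did, 10.9% in all. From 12 to 24 hours 1 rose and 9 fell, where 5.13% and 4.58% did, 9.72% in all. Of the 9 that fell, 8 had risen at 12 hours against the controls: Creb3l3, Slc22a5, Cpt1a, Cpt2, Eci2, Pex11a, Pdk4 and Plin2, and the other was Slc27a2. Without 12-hour replicate 3 the count of both directions was 6, and without the doubted arrays 6 rose and 9 fell, with Cpt1a and Cpt2 no longer among the calls (-0.35 and -0.34). Of all genes 17.8% were called from 12 to 24 hours without the doubted arrays.

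From 24 to 48 hours 1 of the 39 rose and 3 fell (3.57% and 1.91% of all genes, 5.48% in all). From 48 hours to 1 week 1 rose and 0 fell (1.41% and 1.66%, 3.07% in all), with 4 higher and 3 lower at an unadjusted p under 0.05. From 1 to 4 weeks 1 rose and 2 fell (0.874% and 2.28%, 3.15% in all). With each array centred on its median 1 rose and 1 fell from 24 to 48 hours, and after a further quantile normalization 1 rose and 0 fell from 1 to 4 weeks. Those fits called 4.86% and 1.67% of all genes there. Without the doubted arrays the counts of both directions were 5, 6 and 10 in these 3 comparisons. Of all genes 6.12%, 3.9% and 4.14% were then called. The counts also changed when single arrays were left out. Without 1 array the count from 24 to 48 hours lay between 0 (without 48-hour replicate 2) and 4, and was 1 without 24-hour replicate 7 or 48-hour replicate 3 and 2 without 24-hour replicate 4, 8, 9 or 11 or 48-hour replicate 4. That from 48 hours to 1 week lay between 0 (without 48-hour replicate 2 or 3) and 3 (without 1-week replicate 4), with 2 without 48-hour replicate 4, and that from 1 to 4 weeks lay between 0 (without 4-week replicate 3 or 4) and 3, with 1 without 1-week replicate 3 or 4-week replicate 2.

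**Figure D2:**
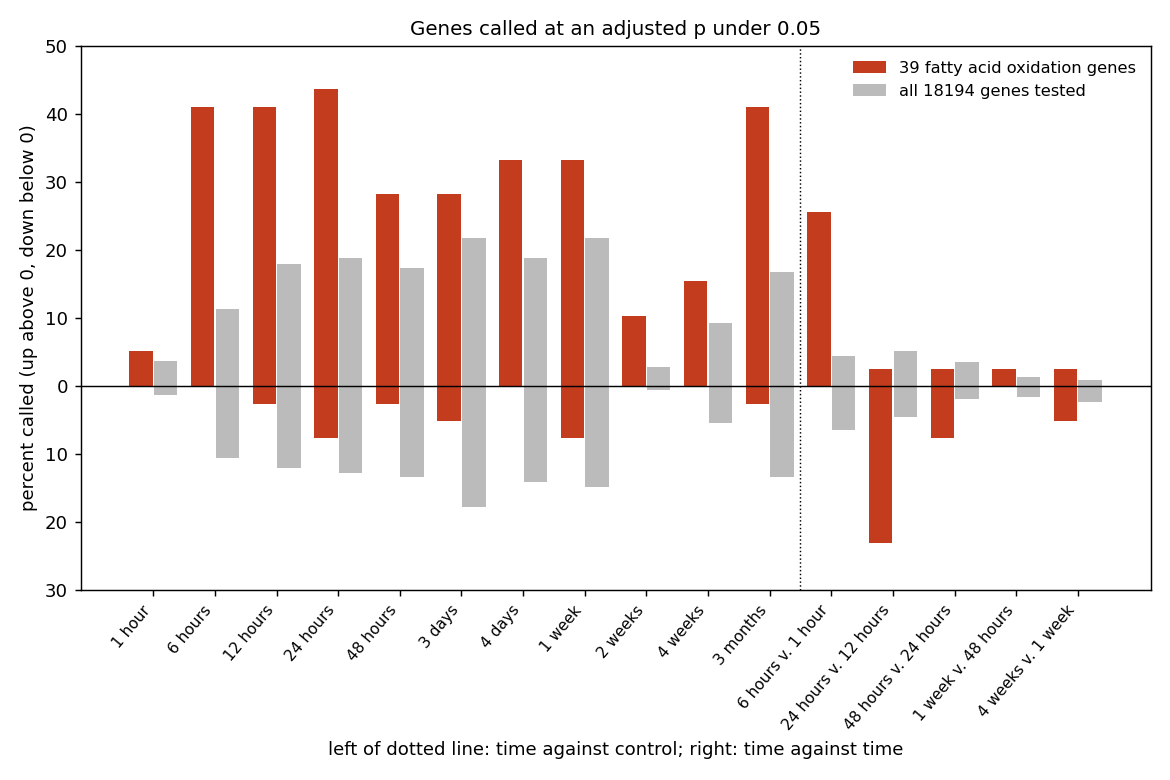
Percent of the 39 fatty acid oxidation genes (red) and of all 18194 genes tested (grey) called at an adjusted p under 0.05, higher above 0 and lower below 0, for 11 times against control and 5 comparisons between times. The red bars above 0 reach 41% at 6 hours beside 11.4% of all genes, and the red bar below 0 reaches 23.1% from 12 to 24 hours beside 4.58%.

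Among the regulators, Creb3l3 (also CREBH), a liver transcription factor that works with PPAR-alpha in fasting, had the clearest course. The controls had 8.92, 9.25, 9.04, 9.27 and 9.33, the 6-hour arrays 9.78, 10.04, 9.98 and 10.09, and the 12-hour arrays 10.34, 10.44, 10.51 and 10.46. All arrays of both groups lay above all controls, and those at 12 hours lay above those at 6 hours. The change was 0.81 ± 0.14 at 6 hours (limma adjusted p = 2.5e-05) and 1.28 ± 0.14 at 12 hours (adjusted p = 8.3e-09), a 2.43-fold difference. Creb3l3 then fell by 0.61 from 12 to 24 hours and by 0.45 from 24 to 48 hours, the latter call being lost without 48-hour replicate 2 or 3 (-0.41 at the least). At 48 hours its arrays, 9.26 to 9.54, overlapped the controls. At 1 week and 3 months it was called higher at 0.71 ± 0.14 and 0.64 ± 0.16. With all arrays Creb3l3 was called higher at 8 of the 11 times, the first being 1 hour, a call lost without 1-hour replicate 1. Its call at 4 weeks, 0.53 ± 0.14, was lost without 4-week replicate 1, which had 10.34 against 9.33 to 9.54 (0.31 without it).

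Ppargc1a encodes PGC-1 alpha, a coactivator of mitochondrial and fasting genes. Its control arrays had 6.00, 5.63, 6.26, 5.28 and 5.81, its 6-hour arrays 7.45, 7.29, 7.25 and 7.51, and its 48-hour arrays 6.64, 7.74, 7.37 and 7.58. No operated array of these groups reached down to the controls. The rise was 1.58 ± 0.34 at 6 hours (adjusted p = 0.00041), was called at each time from 6 hours to 1 week (the 12-hour call was lost without 12-hour replicate 2, at 0.73), and was largest at 1 week at 1.82 ± 0.34 (adjusted p = 5.6e-05). At 1 week replicate 4 had 8.40 and the others 7.29 to 7.42, and without it the change was 1.56 and still called. From 1 to 4 weeks Ppargc1a fell by 1.28, a call lost without 1-week replicate 3 or 4 or 4-week replicate 1, 3 or 4 (-1.02 at the least), and at 2 weeks, 4 weeks and 3 months it was not called.

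Ppara itself was lower where it was called. The controls had 9.26, 9.29, 9.65, 9.14 and 10.00, and the 3-day arrays 8.97, 8.18, 8.64 and 8.47, all below the controls. At 24 hours the 11 arrays ranged from 7.57 over a median of 8.83 to 9.43 and overlapped the controls. The change was -0.90 ± 0.33 at 3 days (adjusted p = 0.028) and -0.70 ± 0.27 at 24 hours (adjusted p = 0.04). The lowest 24-hour arrays were replicates 9, 10 and 11 at 7.57, 8.20 and 8.23, those with Xist signal, and without any 1 of them, or without control replicate 1, 3 or 5, the 24-hour call was lost (-0.57 at the least). Without the 7 doubted arrays Ppara was at -0.43 at 24 hours and not called, and was called at 48 hours and 4 days (-0.55 and -0.60). The 3-day call was lost without 3-day replicate 2 or 4 or control replicate 3 or 5 (-0.77 at the least). The other probe sets of Ppara gave -0.78 and -1.15 at 3 days, both called over all probe sets.

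Among the genes of uptake, Slc22a5, the carnitine transporter OCTN2 of the cell membrane, changed most. The controls had 6.88, 6.98, 6.87, 6.86 and 6.97, the 6-hour arrays 10.00, 10.25, 10.11 and 10.64, and the 12-hour arrays 9.22, 9.57, 9.92 and 9.85. The control arrays lay within a narrow band, and every array at 6 and 12 hours lay far above it. The rise was 3.34 ± 0.33 at 6 hours, a 10.14-fold difference (adjusted p = 2.5e-10), and 2.73 ± 0.33 at 12 hours (adjusted p = 3.9e-08). Slc22a5 rose by 3.04 ± 0.38 between 1 and 6 hours and fell by 1.65 between 12 and 24 hours. The 24-hour arrays ranged from 7.34 over a median of 7.80 to 8.94, still above the controls (1.08 ± 0.27, adjusted p = 0.0016), and it was called higher again at 1 week and 3 months (0.90 ± 0.33 and 1.14 ± 0.36). The 1-week call was lost without 1-week replicate 3 or 4 or control replicate 1 (0.71 at the least), and the 3-month call without 3-month replicate 1 (1.03). Slc22a5 was also called without the 7 doubted arrays at 48 hours, 3 days and 4 days (0.56, 0.57 and 0.58).

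Cd36, a fatty acid translocase that macrophages and endothelial cells also carry, was first called at 24 hours. The controls had 6.24, 6.47, 6.55, 7.52 and 6.87, the 12-hour arrays 7.03, 7.44, 7.34 and 7.31, and the 1-week arrays 8.64, 9.09, 9.28 and 8.29. The 12-hour arrays overlapped the controls and the 1-week arrays lay above them. At 24 hours the range was 6.83 over a median of 8.41 to 9.61, with some overlap. The change was 0.55 at 12 hours, not called, 1.62 ± 0.28 at 24 hours (adjusted p = 1.4e-05), 1.58 ± 0.34 at 4 days, 2.09 ± 0.34 at 1 week (adjusted p = 8.8e-06) and 1.84 ± 0.37 at 3 months (adjusted p = 0.00039). Between times, Cd36 rose by 1.07 ± 0.30 from 12 to 24 hours, fell by 0.99 to 48 hours, rose by 1.47 ± 0.36 to 1 week and fell by 1.29 to 4 weeks. Each of these 4 differences was lost without 1 or more single arrays, the first without 12-hour replicate 1 alone, and all 4 were called without the doubted arrays, at 1.29, -1.22, 1.64 and -1.49. Their values nearest to 0 without 1 array were 0.95, -0.73, 1.20 and -1.14.

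Markers of Kupffer cells, the macrophages of the liver, were high at many of the same times as Cd36. Of 12 such markers, 5 rose at 1 hour, 2 at 12 hours, 11 at 24 hours, 11 at 1 week and 11 at 3 months, and 0 fell at those times (0 lower by limma's unadjusted p). Of all genes 3.67%, 17.9%, 18.9%, 21.8% and 16.7% rose at those times. The mean of the 12 per array was 4.41 to 5.21 in the controls, 5.87 to 6.92 at 1 hour, 5.30 to 5.78 at 12 hours, 5.67 to 7.27 at 24 hours, 6.39 to 8.05 at 1 week and 6.59 to 7.75 at 3 months. At 3 and 4 days, when Cd36 was also called, that mean was 5.91 to 7.07 and 6.15 to 7.25. Cd36 was at -0.49 at 1 hour and was not called. At 2 weeks, when 10 of the 12 markers and 2.8% of all genes rose, Cd36 was at 1.16 and not called. At 3 days, 4 days, 1 week and 3 months 21.7%, 18.8%, 21.8% and 16.7% of all genes rose, and at 24 hours 18.9% rose and 12.8% fell. Of 10 markers of the sinusoidal endothelium, among them Lyve1 and Stab2, 5 rose at 3 days, 3 at 4 days, 3 at 1 week and 4 at 3 months, and 3 rose and 1 fell at 24 hours. Their mean per array was 5.38 to 6.29 in the controls, 6.54 to 6.99 at 3 days, 6.32 to 6.87 at 4 days, 6.32 to 6.63 at 1 week and 6.45 to 6.60 at 3 months, above every control in those 4 groups, and 5.53 to 6.90 at 24 hours, where it overlapped. The part of both marker lists in the Cd36 result was not tested. In whole liver, more cells of a type and more RNA per cell cannot be told apart.

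Fabp1, the abundant fatty acid binding protein of the hepatocyte, and Slc27a2, a very-long-chain acyl-CoA synthetase and transporter, were called in few groups. Fabp1 had 13.54, 13.53, 13.61, 13.59 and 13.65 in the controls and 13.55, 13.56, 13.35 and 5.91 at 1 week. Its call at 1 week, -1.99 ± 0.68 (adjusted p = 0.019), rested on replicate 4 alone: without that array the change was -0.10 and not called. Without the 7 doubted arrays Fabp1 was called lower at 48 hours, 3 days and 4 days at -0.55, -0.71 and -0.40. Slc27a2 was called lower at 24 hours at -0.30 ± 0.12 (adjusted p = 0.045), a call lost without any 1 of the controls or without 24-hour replicate 1, 5, 7, 8, 9 or 10 (-0.25 at the least), and it fell by 0.62 from 12 to 24 hours. The 24-hour value was -0.18 and not called without the 7 doubted arrays.

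In the carnitine shuttle, Cpt1a, the carnitine palmitoyltransferase that controls entry into the mitochondrion, had 9.40, 10.01, 9.68, 9.69 and 9.98 in the controls, 10.26, 10.65, 10.43 and 10.78 at 6 hours and 10.63, 10.51, 10.63 and 10.57 at 12 hours. Both operated groups lay above every control, by a small margin. The rise was 0.78 ± 0.18 at 6 hours (adjusted p = 0.0012) and 0.83 ± 0.18 at 12 hours (adjusted p = 0.00043), and Cpt1a was called again at 48 hours, 1 week and 3 months (0.57, 0.81 and 0.73), the 48-hour call being lost without control replicate 1 (0.48). The other probe sets with clear signal read 1.47 and 1.89 at 6 hours, 0.05 and 0.02 at 24 hours and -0.08 and -0.36 at 3 months, so the rises at 48 hours, 1 week and 3 months were called by the chosen set alone.

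Cpt2, which rebuilds acyl-CoA inside the mitochondrion, and Slc25a20, which carries acylcarnitine across the inner membrane, were highest at 12 hours. Cpt2 rose by 0.88 ± 0.18 (adjusted p = 0.0002) and Slc25a20 by 0.78 ± 0.17 (adjusted p = 0.00029), and both were called at 24 hours (0.38 and 0.49). The 24-hour call of Cpt2 was lost without 24-hour replicate 2, 3, 4 or 6 or control replicate 1, 2, 3 or 5 (0.31 at the least). Crot, which handles medium chains made in peroxisomes, was never called against the controls. From 1 to 4 weeks Crot was called higher by 1.05 ± 0.30, a call lost without 1-week replicate 4 (0.56) or 4-week replicate 2, 3 or 4.

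Crat, the carnitine acetyltransferase, was called lower at 48 hours, 3 days, 1 week and 3 months. The controls had 7.82, 7.19, 7.28, 7.28 and 7.37, the 1-week arrays 6.43, 6.45, 6.46 and 6.52, and the 3-month arrays 6.08, 6.40 and 5.95, all below the controls. The change was -0.92 ± 0.23 at 1 week (adjusted p = 0.0016) and -1.25 ± 0.25 at 3 months (adjusted p = 0.00036). Its probe sets disagreed: another one, with a similar mean, was called higher at 12 hours (1.18), 24 hours (0.91) and 3 days (0.86), and the mean of the probe sets of Crat gave 0.18 at 3 days (adjusted p = 0.47) in place of -0.60. The fall given here is therefore that of 1 probe set, and its 48-hour and 3-day calls were also lost without control replicate 1 or some arrays of their own group (-0.50 and -0.49 at the least).

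Of the 13 measured genes of the mitochondrial cycle 7 rose at 24 hours, 6 at 48 hours, 7 at 3 days and 7 at 4 days, where 18.9%, 17.4%, 21.7% and 18.8% of all genes rose. At those times limma called 0 of the 13 lower, and at an unadjusted p under 0.05 it gave 1 lower at 24 hours and 0 at the others. Acadm, the medium-chain acyl-CoA dehydrogenase, had 10.66, 11.07, 10.95, 11.15 and 11.10 in the controls, 11.14, 11.23, 11.25 and 11.26 at 12 hours and 11.85, 11.79, 11.84 and 11.74 at 3 days. The 3-day arrays lay above all controls and above the 12-hour arrays, and the 12-hour arrays reached into the control range. The change was 0.23 at 12 hours, not called, 0.31 ± 0.09 at 24 hours, a call lost without control replicate 1 (0.23), 0.63 ± 0.11 at 48 hours, 0.82 ± 0.11 at 3 days (adjusted p = 2e-07) and 0.72 ± 0.11 at 4 days, and then 0.53 at 1 week and 0.62 ± 0.12 at 3 months. From 24 to 48 hours Acadm rose by 0.32 ± 0.09, a call lost without 48-hour replicate 2 or 4 or 24-hour replicate 7, 9 or 10 (0.25 at the least). At 4 weeks its call (0.32) was lost without 4-week replicate 1 (0.28), 2 or 3 or control replicate 1 or 3 (0.24 at the least). Its highest group was thus 3 days, when Slc22a5, Pdk4, Plin2 and Pex11a were not called with all arrays in the fit.

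The other acyl-CoA dehydrogenases differ in the length of chain they take. Acadl, for long chains, rose at each time from 6 hours to 1 week by 0.44 to 0.68, with most at 12 hours (0.68 ± 0.16, adjusted p = 0.00073), and its calls at 6 hours, 48 hours, 4 days and 1 week were lost without control replicate 1 (0.36 at the least). Acadvl, for very long chains, was called at 24 hours and 3 months (0.48 ± 0.10 and 0.43 ± 0.14), the latter lost without control replicate 1 or 3-month replicate 1 or 3 (0.36 at the least). Acads, for short chains, was not called with all arrays. Without 1-week replicate 4, both Acadvl (0.41 ± 0.13, adjusted p = 0.012) and Acads (0.69 ± 0.21, adjusted p = 0.0098) were called at 1 week, in place of 0.24 and 0.39.

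The trifunctional protein is built from Hadha and Hadhb. Hadhb had 8.17, 9.87, 9.40, 9.93 and 9.56 in the controls, 10.50, 10.18 and 10.29 at 1 hour and 10.68, 10.58, 10.68 and 10.85 at 12 hours. Every operated array of all 11 groups lay above every control, and control replicate 1 was the lowest by far. The rise was called at all 11 times, from 0.94 ± 0.21 at 1 hour (adjusted p = 0.005) to 1.34 ± 0.21 at 3 months (adjusted p = 2.2e-05). Without control replicate 1 it was 0.63 at 1 hour and 1.04 at 3 months and was still called at all 11 times. Without 1-hour replicate 1 the 1-hour call was lost, and without either 2-week array the 2-week call. Another Hadhb probe set of nearly the same brightness was called only at 12 hours and 4 weeks (0.66 and 0.69) and gave -0.34 at 3 months. With all arrays Hadha was called at 24 hours alone (0.88 ± 0.24, adjusted p = 0.0047). Without 1-week replicate 4 it was also called at 1 week at 1.05 ± 0.27 (adjusted p = 0.003), in place of 0.54, and from 1 to 4 weeks at -1.12.

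Hadh, the short-chain 3-hydroxyacyl-CoA dehydrogenase, was called against the controls at 12 hours alone when all arrays were used. The controls had 12.47, 12.24, 12.39, 12.34 and 12.45, and the 12-hour arrays 11.62, 11.24, 11.29 and 11.57, all below them. The fall was -0.95 ± 0.26 at 12 hours (adjusted p = 0.004), while at 3 days the arrays, 12.65, 12.09, 12.76 and 12.70, overlapped the controls. Other probe sets of Hadh read -0.31 and -0.68 at 12 hours, neither called. Hadh was also called lower at 6 and 24 hours without the 7 doubted arrays (-0.63 and -0.31). Acaa2, the thiolase of the cycle, was not called with the chosen probe set, and 1 of its others was called higher at 8 of the 11 times, by 1.06 to 1.54. Without 1-week replicate 4 the chosen set was called at 1 week at 0.49 ± 0.12 (adjusted p = 0.002), and without the 7 doubted arrays also at 3 and 4 days (0.26 and 0.28).

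Electrons leave the cycle through ETF, made of Etfa and Etfb, and its oxidoreductase Etfdh. Etfdh had 7.93, 9.49, 9.12, 9.62 and 9.21 in the controls and 10.00, 10.10, 10.22 and 10.25 at 12 hours, all above the controls. It rose at 9 of 11 times, by 1.07 ± 0.21 at 12 hours (adjusted p = 8e-05) and by 1.03 ± 0.23 at 3 months, and the 48-hour call was lost without control replicate 1 or 48-hour replicate 2 or 4 (0.27 at the least). Etfa was called at 3 days, 4 days and 3 months (0.36, 0.40 and 0.47), and Etfb at 48 hours, 3 days and 4 days (0.56, 0.55 and 0.49). Without control replicate 1 the calls of Etfa at 3 and 4 days were lost (0.24 and 0.28), and without 4-day replicate 1 that of Etfb at 4 days (0.43). Without 1-week replicate 4 both were called at 1 week, Etfa at 0.40 (adjusted p = 0.0058) and Etfb at 0.41 (adjusted p = 0.03). Without the 7 doubted arrays Etfa was called lower at 24 hours (-0.21), Etfb was called higher at 24 hours and 3 months (0.35 and 0.39), and Etfdh at 48 hours and 4 weeks was not called (0.27 and 0.49).

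For unsaturated chains, Decr1, the 2,4-dienoyl-CoA reductase, had 9.05, 10.14, 9.83, 10.19 and 9.90 in the controls and 10.78, 10.76, 10.95 and 10.97 at 12 hours, with no overlap. It was called at 8 of the 11 times and rose by 1.05 ± 0.24 at 12 hours (adjusted p = 0.00068) and by 1.05 ± 0.19 at 24 hours (adjusted p = 4.1e-05). The calls at 6 hours, 48 hours, 3 days and 1 week were lost without control replicate 1 (0.38 at the least). Another probe set of Decr1 was never called and read 0.62 at 12 hours. Eci1, the mitochondrial enoyl-CoA isomerase, was not called with all arrays. At 1 week it was called without replicate 4 (0.56 ± 0.20, adjusted p = 0.027, in place of 0.12), but not without all 7 doubted arrays (0.49, adjusted p = 0.059).

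In the peroxisome, Eci2, an enoyl-CoA isomerase that is also found in mitochondria, had 8.75, 9.49, 9.35, 9.64 and 9.68 in the controls, 10.71, 10.91, 11.01 and 11.02 at 6 hours and 11.01, 10.98, 11.16 and 11.07 at 12 hours. On all arrays of both operated groups Eci2 lay above every control. It rose by 1.53 ± 0.19 at 6 hours (adjusted p = 6.2e-08) and by 1.67 ± 0.19 at 12 hours (adjusted p = 1.6e-08), fell by 0.62 from 12 to 24 hours (not called without 12-hour replicate 3, at -0.57), and was called higher at the later times too, by 0.66 to 1.08. At 4 weeks replicate 1 had 11.19 and the others 9.77 to 10.06, and without it the change was 0.51 and not called.

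Pex11a, which takes part in the division of peroxisomes, was highest at 6 and 12 hours. The controls had 8.85, 8.46, 8.37, 8.54 and 8.41, the 6-hour arrays 9.39, 9.72, 9.60 and 9.86 and the 12-hour arrays 9.63, 9.71, 9.93 and 9.94. By 48 hours the arrays, 8.38, 8.33, 8.28 and 8.53, were back within or just below the control range. The rise was 1.11 ± 0.26 at 6 hours (adjusted p = 0.0013) and 1.28 ± 0.26 at 12 hours (adjusted p = 0.0002), and Pex11a fell by 1.06 from 12 to 24 hours. At 3 months the arrays had 9.75, 9.44 and 9.44, again above all controls (1.02 ± 0.29, adjusted p = 0.0069).

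Acaa1b, a peroxisomal thiolase, was lower. The controls had 12.87, 12.83, 13.00, 12.94 and 12.84, and the 24-hour arrays ranged from 9.65 over a median of 11.14 to 11.91, all below the controls. The fall was -1.93 ± 0.62 (adjusted p = 0.015), with 9.65, 9.76 and 10.66 in the arrays with Xist signal, and without the 7 doubted arrays it was -1.59 and called, as were the values at 12 hours, 48 hours and 3 days (-0.91, -1.13 and -1.03). At 1 week the arrays had 13.08, 13.14, 12.96 and 5.04. Ehhadh, the peroxisomal bifunctional enzyme, was not called at any time (1.12 ± 0.46 at 12 hours, adjusted p = 0.062), and without the 7 doubted arrays it was called at 12 hours and at 1 week (0.91 and 1.76). Leaving out 1-week replicate 4 alone also gave a call at 1 week (1.97) and from 48 hours to 1 week (1.94). Decr2 was called at 3 months (0.81 ± 0.31, adjusted p = 0.045), a call lost without any 1 array of that group or without control replicate 1, 3 or 5 (0.60 at the least). Without 1-week replicate 4 Decr2 was called at 1 week at 1.10 ± 0.22 (adjusted p = 0.00027), in place of 0.51.

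Cyp4a14, an omega-hydroxylase and a classical PPAR-alpha target, had large differences that lasted. The controls had 6.18, 7.77, 8.20, 8.71 and 8.28, the 1-hour arrays 6.19, 6.31 and 5.41, the 6-hour arrays 9.89, 10.11, 11.07 and 10.45, and the 24-hour arrays ranged from 9.03 over a median of 11.66 to 12.21. Arrays at 1 hour overlapped only the lowest control, and those at 6 and 24 hours lay above all controls. The rise was 2.55 ± 0.78 at 6 hours (adjusted p = 0.013), 3.32 ± 0.63 at 24 hours (adjusted p = 6.1e-05) and 3.45 ± 0.78 at 4 days, a 10.91-fold difference (adjusted p = 0.00073). From 1 to 6 hours Cyp4a14 rose by 4.41 ± 0.89 (adjusted p = 4e-04). At 3 months the arrays had 10.62, 10.94 and 10.29 (2.79 ± 0.85, adjusted p = 0.011).

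Single arrays moved Cyp4a14 in both directions. The 6-hour call was lost without control replicate 1, the lowest control (2.14), and the 1-week call without it or without 1-week replicate 1, 2 or 3 (1.61 at the least). At 1 week replicate 4 had 5.20 and the others 11.55, 11.58 and 11.76, and without it the change was 3.80 in place of 2.19, and the change from 1 to 4 weeks was -2.27 and called, in place of -0.66. Without the 7 doubted arrays the 1-hour value of -2.27 was called, where all arrays gave -1.86 (adjusted p = 0.23). The Cyp4a genes are near-identical in places, so a probe set can also read a neighbour, which was not tested.

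Pdk4, the kinase that shuts pyruvate dehydrogenase so that fat is burned in place of glucose, had the largest rise of the 39. The controls had 6.44, 5.07, 6.12, 4.46 and 3.34, the 6-hour arrays 9.62, 9.81, 9.22 and 10.09, and the 12-hour arrays 6.56, 8.93, 10.68 and 8.48. The 6-hour arrays were close together and far above the controls, while the lowest 12-hour array was just above the highest control. The rise was 4.60 ± 0.86 at 6 hours, a 24.32-fold difference (adjusted p = 6.3e-05), and 3.58 ± 0.86 at 12 hours (adjusted p = 0.0012). From 12 to 24 hours Pdk4 fell by 2.82 (adjusted p = 0.011), a call lost without 12-hour replicate 3 (-2.14), and at 24 hours the arrays ranged from 4.07 over a median of 5.86 to 9.05. At 3 months it was at 3.51, 4.22 and 2.96, within or below the control range (-1.52, not called).

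Angptl4, a secreted inhibitor of lipoprotein lipase, had 6.27, 8.34, 7.71, 8.54 and 7.86 in the controls, 9.91, 10.05, 9.76 and 10.03 at 6 hours and 10.03, 10.32, 10.52 and 10.31 at 12 hours. On all arrays of both operated groups Angptl4 lay above every control. It rose by 2.19 ± 0.41 at 6 hours (adjusted p = 6.8e-05) and by 2.55 ± 0.41 at 12 hours, a 5.86-fold difference (adjusted p = 5.3e-06). It was also called at 24 hours, 48 hours, 4 days, 1 week, 4 weeks and 3 months, by 1.08 to 1.81, and the calls at 48 hours, 4 days and 3 months were lost without control replicate 1 (0.80, 0.71 and 0.86) and without some arrays of their own groups. The calls at 1 and 4 weeks were lost without the 7 doubted arrays (0.90 and 1.16). At 3 days Angptl4 was called without 3-day replicate 2 (1.08, in place of 0.68).

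Fgf21, the fasting hormone of the liver, was not called (1.46 ± 0.59 at 12 hours, adjusted p = 0.058). It was at 8.78 on 24-hour replicate 1 and at 7.10 on 4-week replicate 1, against 4.00 to 5.06 in the controls, and without the 7 doubted arrays it was called at 12 hours (1.56). Vnn1, a pantetheinase, passed the F test (adjusted p = 0.0092) but no single comparison with control, and was at 1.75 ± 0.73 at 12 hours (adjusted p = 0.064). It fell by 2.02 from 24 to 48 hours (adjusted p = 0.049), a call lost without 48-hour replicate 2, 3 or 4 or 24-hour replicate 3, 4, 6, 7, 8, 9 or 11 (-1.63 at the least). Vnn1 was called, without the 7 doubted arrays, higher at 12 hours (1.44) and lower at 48 hours (-1.27). Bdh1, which makes 3-hydroxybutyrate, was not called at any time, with -1.05 ± 0.53 at 3 days (adjusted p = 0.11), and was called there without the 7 doubted arrays (-1.14).

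Of the lipid droplet genes, Plin2, which coats droplets, lay between 10.47 and 11.04 on the 5 control arrays and had 12.87, 12.96, 12.76 and 12.90 at 6 hours and 12.79, 12.76, 13.03 and 13.05 at 12 hours. The operated arrays of these groups lay close together and clear of the controls. Plin2 rose by 2.05 ± 0.29 at 6 hours (adjusted p = 4.4e-07) and by 2.08 ± 0.29 at 12 hours (adjusted p = 3.3e-07), a 4.24-fold difference, and fell by 1.31 from 12 to 24 hours (adjusted p = 0.00046). At 24 hours it was still called at 0.78 ± 0.23, and at no later time. At the same early times the mean of 6 neutrophil markers per array was 4.79 to 5.21 at 6 hours and 4.65 to 5.17 at 12 hours, against 3.86 to 4.06 in the controls. Of the 6, S100a8 (3.78 and 3.57) and S100a9 (3.13 and 2.93) rose, and the granule genes Ngp, Camp, Ltf and Elane were not called at either time. The neutrophil mean also lay above every control at 1 hour, 3 days, 4 days and 2 weeks, when Plin2 was not called. Its ranges there were 4.15 to 5.23, 4.25 to 4.90, 4.26 to 5.11 and 4.33 to 5.53. It was 4.06 to 5.33 at 24 hours and overlapped the controls at 48 hours, 1 week, 4 weeks and 3 months. The part of neutrophils in the early results was not tested.

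Pnpla2, the adipose triglyceride lipase, rose at 6 hours (0.76 ± 0.27, adjusted p = 0.034), a call lost without any 1 of the 6-hour arrays or control replicate 1 or 4 (0.63 at the least), and by 1.18 ± 0.30 from 1 to 6 hours. From 1 to 4 weeks it was called lower without 4-week replicate 1 (-1.04, in place of -0.76). G0s2, an inhibitor of that lipase, had 9.69, 9.65, 10.58, 9.12 and 9.37 in the controls, 8.59, 7.15 and 7.88 at 1 hour and 9.69, 10.11, 10.30 and 10.56 at 6 hours. All 1-hour arrays lay below the controls, though the change against the controls was not called, and from 1 to 6 hours G0s2 rose by 2.29 ± 0.71 (adjusted p = 0.026). Its fall at 1 week, -1.88 ± 0.62 (adjusted p = 0.015), was lost without replicate 4 (-1.20). The rise from 1 to 6 hours was lost without 1-hour replicate 2 or 3 or 6-hour replicate 3 or 4 (1.93 at the least).

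**Figure D3:**
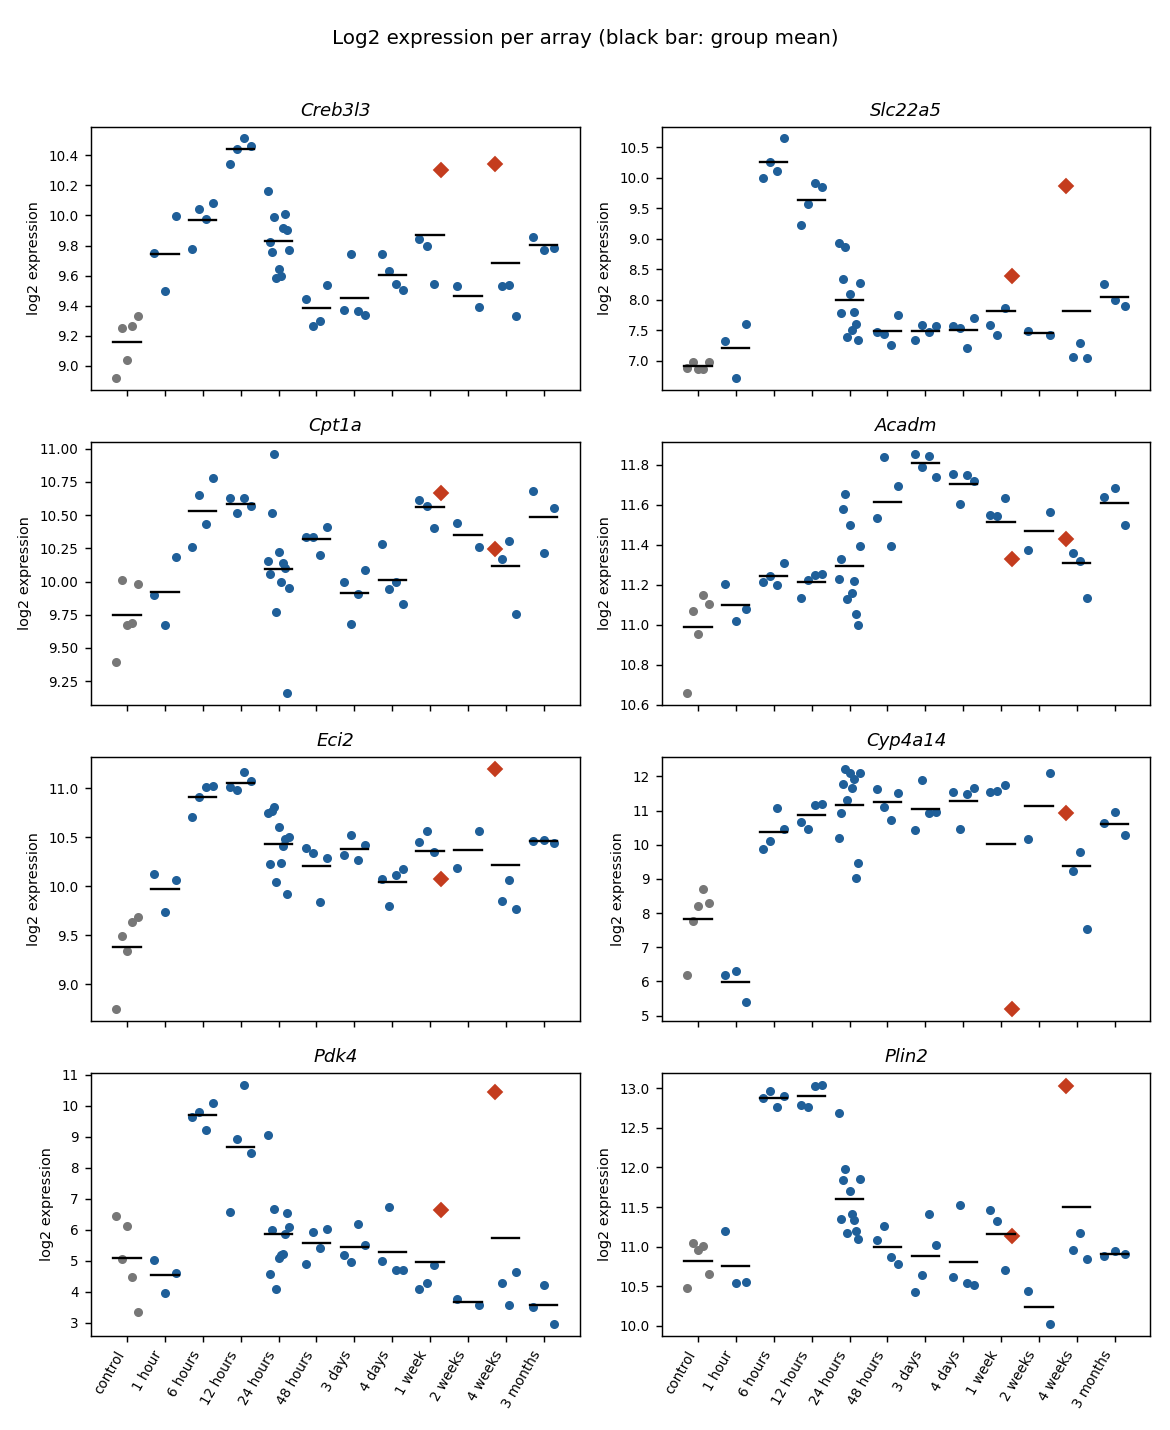
Log2 expression on each of the 52 arrays (points; groups in time order, not to scale) of the gene with the largest F in each role group, with the group mean as a black bar, controls in grey and 1-week replicate 4 and 4-week replicate 1 as red diamonds. Slc22a5, Pdk4 and Plin2 peak at 6 and 12 hours and are lower at 24 hours, Acadm is highest at 3 days, and the diamond of 4 weeks lies with the 12-hour arrays for Pdk4 (10.44), Plin2 (13.03) and Slc22a5 (9.86).

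Genes of the same pathways outside the 39 were read from further lists, beside which 11.4% of all genes rose and 10.5% fell at 6 hours, 17.9% and 12% at 12 hours, and 21.7% and 17.7% at 3 days. Among 13 other lipid droplet and lipolysis genes 5 rose and 3 fell at 6 hours and 6 rose and 4 fell at 12 hours. Cidec, which fuses droplets, rose by 3.72 ± 0.69 at 6 hours and 4.48 ± 0.69 at 12 hours, and Hilpda, an inhibitor of lipolysis, rose by 2.72 ± 0.33 at 6 hours, while Lipa, the lysosomal lipase, was lower at 12 hours (-1.06 ± 0.24), as was Fitm1 (-1.24 ± 0.34). Of 6 measured adipocyte markers, Fabp4 rose (2.93 ± 0.48 at 6 hours and 4.36 ± 0.48 at 12 hours) and Lipe was lower (-0.73 ± 0.24 and -0.71 ± 0.24), and the fat cell hormones Adipoq and Lep averaged 2.30 and 2.59 at 12 hours against 2.20 and 2.62 in the controls, where the median probe set was at 4.04. The mean over the 6 markers per array was 3.70 to 4.15 in the controls 4.18 to 4.32 at 6 hours and 4.29 to 4.58 at 12 hours. It was higher on single later arrays, with up to 5.48 at 48 hours and 6.42 at 3 days, where the medians were 3.97 and 4.17. At 3 days Fabp4 (2.41 ± 0.48) and Adipoq (1.54 ± 0.58, with a highest array of 7.42) rose, and Retn and Cidea, not called, reached 7.20 and 6.13. Without 3-day replicate 3 the change of Adipoq was 0.32 and not called, and that of Fabp4 1.97 and called. Cd36 at 3 days was at 1.49 and lay between 1.36 and 1.69 without each array in turn, called each time. The part of fat cells in these results was not tested.

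Of 7 acyl-CoA thioesterases, which split acyl-CoA, 5 rose and 1 fell at 12 hours: Acot3 rose by 2.60 ± 0.56 and Acot2 by 2.18 ± 0.47, and Acot13 was lower (-1.22 ± 0.29). Of 6 other omega oxidation genes 2 rose and 1 fell at 12 hours (Cyp4a31 2.16 ± 0.62, Adh7 0.94 ± 0.19 and Cyp4f15 -1.75 ± 0.27). Cyp4a12a, a gene known to be more active in male than in female mice, was at -3.98 ± 1.15 at 1 week (adjusted p = 0.006), with all 4 arrays between 4.31 and 8.82, below the controls, and without 1-week replicate 4 it was at -3.24 and still called (adjusted p = 0.041). Of 5 measured genes of ketone body synthesis and use, 2 rose and 0 fell at 6 hours (0 lower by limma's unadjusted p), with Slc16a6, an exporter of ketone bodies, at 3.04 ± 0.31; at 3 days 2 rose, and Oxct1, which lets tissues other than liver burn ketone bodies, was at 2.01 ± 0.31.

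Of 11 other regulators of fatty acid oxidation 1 rose and 3 fell at 6 hours: Lpin1, a partner of PGC-1 alpha, rose by 2.62 ± 0.45, and Ppargc1b (-1.64 ± 0.48) and Sirt3 (-0.69 ± 0.17) were among those that fell. Of 10 other peroxisomal oxidation genes 0 were called by limma at 6 hours, where 3 had an unadjusted p under 0.05, and 3 rose and 1 fell at 3 days, with Abcd2, a transporter of very long chains, at 2.22 ± 0.46 (2.18 to 2.30 and called without each 3-day array in turn) and Hacl1 at 1.12 ± 0.27. Of 7 other acyl-CoA dehydrogenases and matrix enzymes 3 rose and 1 fell at 3 days: Echs1, the enoyl-CoA hydratase, rose by 1.41 ± 0.19 and Acad9 by 0.83 ± 0.26, and Acad10 was lower (-1.18 ± 0.22).

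Genes that respond to fasting and to glucocorticoids were also called at the early times. Of 12, 7 rose and 1 fell at 6 hours, where 11.4% and 10.5% of all genes did. At 12 hours 5 rose and 1 fell, where 17.9% and 12% of all genes did. Fkbp5 rose by 3.92 ± 0.35 and Igfbp1 by 3.36 ± 0.77 at 6 hours, and Ppp1r3c was lower at 12 hours (-3.01 ± 0.64). Of 16 clock genes 3 rose and 2 fell at 6 hours, where 11.4% and 10.5% of all genes did. Their part in the results on the 39 genes was not tested.

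On 1-week replicate 4, 30 of the 39 genes lay below the other 3 arrays of the group, 16 of them by more than 1, and 8 lay above. Fabp1 was at 5.91 where the others had 13.35 to 13.56, and Cyp4a14 at 5.20 where they had 11.55 to 11.76. On that array Alb was at 13.68 and Hnf4a at 11.94, against 14.07 to 14.13 and 11.12 to 11.23 on the others, and S100a8, a neutrophil gene, was at 10.32 against 3.94 to 5.32. On 4-week replicate 1, 25 of the 39 lay above the other 3 arrays, 12 by more than 1. Pdk4 was at 10.44 there, against 3.55 to 4.64, and the 12-hour mean was 8.66. 3-day replicate 2, not among the 7, had 25 of the 39 below the other 3 arrays of its group, 5 of them by more than 1, and 7 above, and correlated at 0.13 with its group.

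**Figure D4:**
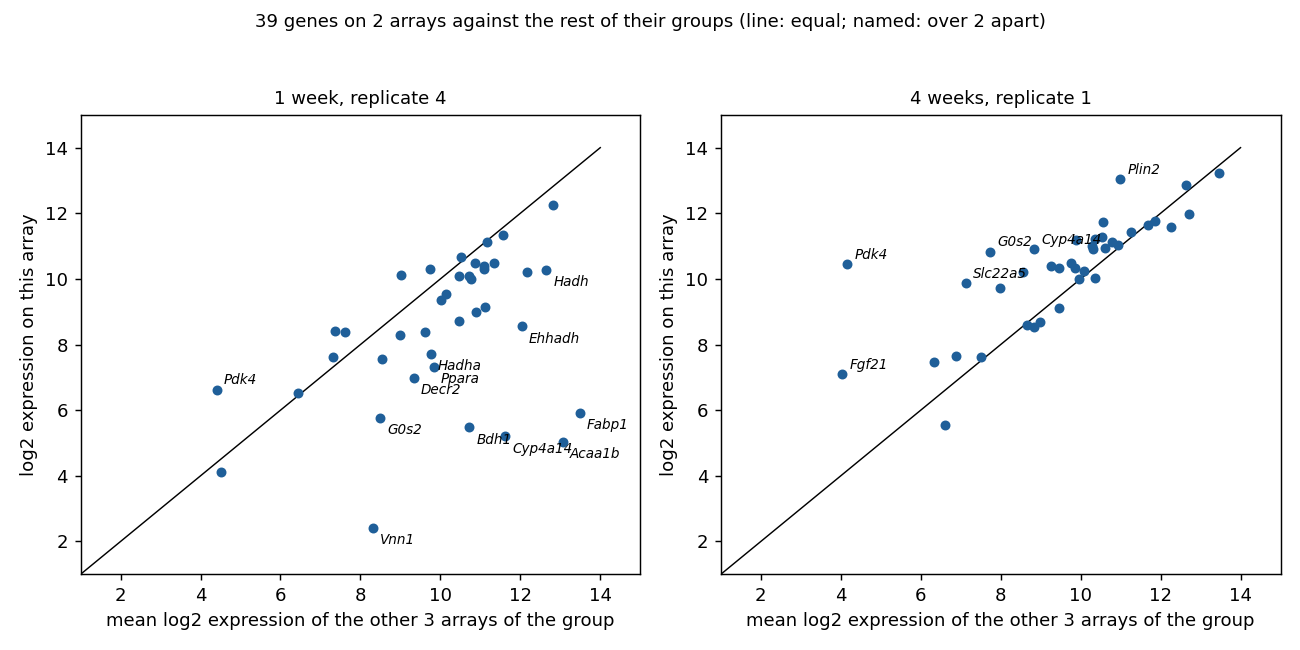
Log2 expression of the 39 genes on 1-week replicate 4 (left) and 4-week replicate 1 (right) against the mean of the other 3 arrays of the same group, with a line where both are equal and names of genes more than 2 apart. On the left most points lie below the line, among them Vnn1 at 2.41, and on the right Pdk4 lies far above it at 10.44.

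The mean of the hybridization controls was higher in the untreated group than in every operated group. Single arrays overlapped, with 10.85 on 24-hour replicate 6 and 10.60 to 11.27 on the untreated arrays. The fit was therefore repeated with the mean of the hybridization controls as a covariate. The counts of called genes among the 39 were then 9 at 6 hours, 16 at 12 hours, 14 at 24 hours and 5 at 48 hours, in place of 16, 17, 20 and 12. It called 0 of the 39 at 1 hour and at each of the 6 times from 3 days on. At an unadjusted p under 0.05 it gave 2 higher and 3 lower at 1 hour, 2 and 6 at 3 days, 3 and 3 at 4 days, 4 and 6 at 1 week, 1 and 0 at 2 weeks, 5 and 0 at 4 weeks and 6 and 0 at 3 months. Over all genes the same fit called 18% at 6 hours, 20.1% at 12 hours, 13.3% at 24 hours and 11.8% at 48 hours, but 1.03% at 3 days and 0% at 3 months, so the loss was not limited to these genes. The fit also has wider errors where the covariate differs most: the SE of Acadm at 3 days was 0.17 in place of 0.11 and its value 0.59 (adjusted p = 0.073) in place of 0.82.

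Several early rises were called in that fit too: Pdk4 was at 4.90 and Slc22a5 at 3.39 at 6 hours, and Plin2 at 1.89 and Pex11a at 1.29 at 12 hours. The 6-hour value of Cyp4a14 was not called in it. Between times, both fits called 10 genes from 1 to 6 hours, 10 from 12 to 24 hours and 4 from 24 to 48 hours. From 48 hours to 1 week the count was 0 in place of 1 (2 higher and 7 lower at an unadjusted p under 0.05), and from 1 to 4 weeks 0 in place of 3 (6 higher and 3 lower), where the share of all genes called was 0.236% in place of 3.15%. For Cd36 the 24-hour rise was 1.08 and called, and the 3-month value was 0.83 and not called, in place of 1.84. Ppara at 24 hours was at -1.08 and called.

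**Figure D5:**
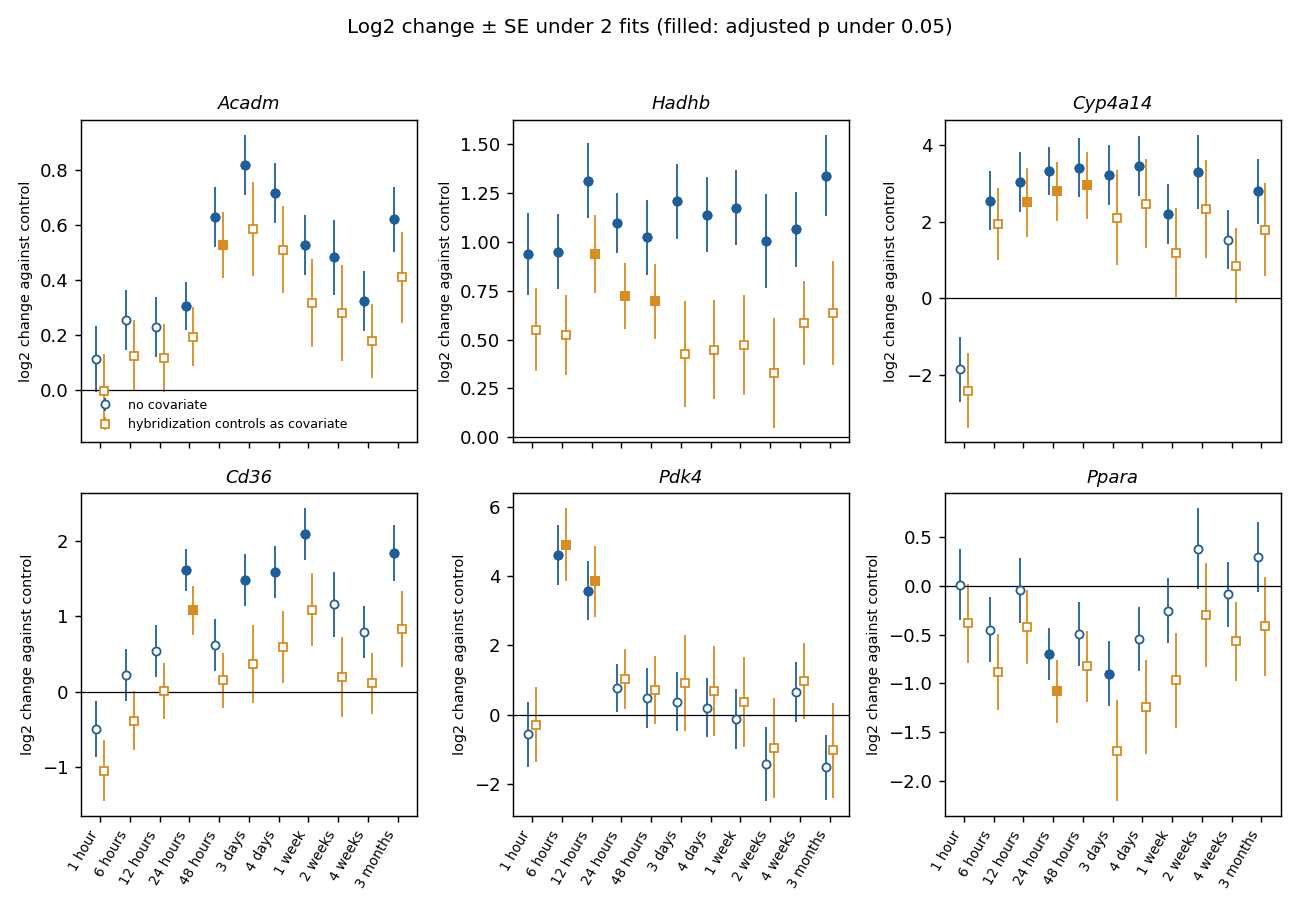
Log2 change against control ± SE (y) at 11 times (x, not to scale) for 6 genes, from the fit without a covariate (blue circles) and with the hybridization controls as a covariate (orange squares), filled where the adjusted p was under 0.05. The values of both fits lie close together for Pdk4 at 6 and 12 hours, whereas for Acadm, Hadhb and Cyp4a14 no orange square is filled from 3 days on.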

How the data were processed

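Liver RNA of 52 samples was read on Affymetrix expression arrays. The deposited values are log2 expression per probe set, made by the authors with RMA in oligo 1.52.0 per the submitters' processing notes; joint normalization is not stated. Groups came from the sample titles. Of 45101 probe sets, 34958 named 1 gene. The brightest per gene gave 18194 genes, and 18033 of 18195 gene IDs matched the GRCm38.p6 symbol table. limma 3.58.1 (R 4.3.3) fitted 12 group means over all 52 arrays, with 11 comparisons with control and 5 between times, Benjamini-Hochberg adjusted over all genes. The fit was tested on simulated data. No 2 arrays were identical (highest correlation 0.99567). Alternatives changed the probe set rule, a filter on dim genes, scaling, array weights, technical covariates, the replicate block and the arrays used; the Xist and Gapdh alternatives were chosen after seeing the data. Array values are given for the gene with the largest F of each role and for the called genes with the largest rises and falls of each comparison (up to 4 each way). Outside that rule they are given for Decr1, chosen after its values were seen, and for some arrays of Fgf21. Further lists give up to 2 genes each way. The labels do not say what a shared replicate number means, and the samples were not treated as paired. Same-numbered arrays had a median correlation of deviations of -0.00295, and arrays with other numbers 0.0052. The members and lists were chosen with earlier results of these data known.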

Additional observations from a re-analysis of the deposited data

Results flagged for a closer look

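In groups of 4 to 10 arrays, 21 of 144 sets of values had their highest or lowest array far from the rest by Dixon's criterion. Chance meets it in about 1 in 20 independent sets. These sets are not independent, because several genes were read on the same arrays and a single array can stand apart for many of them.

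1-week replicate 4 was the lowest of its group for Ppara (7.33), Hadhb (10.09), Acaa1b (5.04), Cyp4a14 (5.20) and Fabp1 (5.91), and the highest for Ppargc1a (8.40). 4-week replicate 1 was the highest of its group for Slc22a5 (9.86), Pex11a (10.20), Pdk4 (10.44) and Plin2 (13.03).

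4-day replicate 2 was the highest for Cd36 (8.58), Pdk4 (6.74) and Plin2 (11.53) and the lowest for Cyp4a14 (10.46). 4-day replicate 4 was the highest for Hadhb (10.59) and the lowest for G0s2 (6.90). 3-day replicate 2 was the highest for Creb3l3 (9.74) and Crat (7.46) and the lowest for Fabp1 (12.00). Crat was also highest on control replicate 1 (7.82), and Cd36 was lowest on 6-hour replicate 2 (6.82).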

How the results depend on the processing

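Each alternative changed 1 choice. Of 173 changes of named genes, a called sign was turned for Crat at 3 days alone, to 0.18 with the mean of the probe sets of a gene (adjusted p = 0.47) and to 0.19 with the hybridization controls as covariate (adjusted p = 0.85). The covariate also ended 61 other calls, the groups of the comparison alone 24, the mean of the probe sets 21, the Gapdh covariate 19, leaving out the doubted arrays 19, and quantile normalization 16. The cause was not tested.

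Counts of called genes among the 39 that moved by over 1.5 times were these. The hybridization covariate gave 0 at 1 hour, 9 at 6 hours, 5 at 48 hours, 0 at each time from 3 days to 3 months, 0 from 48 hours to 1 week and 0 from 1 to 4 weeks. Of all genes that fit called 0.0879%, 18% and 11.8% at 1, 6 and 48 hours, and 0% to 1.23% from 3 days on. It called 3.2% of all genes from 48 hours to 1 week and 0.236% from 1 to 4 weeks. The Gapdh covariate gave 0 at 1 hour, 7 at 48 hours, 8 at 3 days and 1 at 2 weeks, where 1.3%, 28.4%, 32.6% and 1.81% of all genes were called. Array weights gave 6 at 1 hour, 26 at 1 week, 11 at 2 weeks, 22 from 12 to 24 hours, 7 from 24 to 48 hours, 10 from 48 hours to 1 week and 16 from 1 to 4 weeks. In the same order, array weights called 12.9%, 42.2%, 9.85%, 22.5%, 10.8%, 9.32% and 19.6% of all genes. Quantile normalization gave 1 at 1 hour, 2 at 2 weeks, 10 at 3 months and 1 from 1 to 4 weeks, and median centring 2 from 24 to 48 hours. The shares of all genes were 6.81%, 3.95%, 25.3% and 1.67% with quantile normalization and 4.86% with median centring. The mean of the probe sets gave 10 at 1 week and 0 from 1 to 4 weeks, where 35.2% and 2.16% of all genes were called. The filter on dim genes gave 2 from 48 hours to 1 week, where 5.24% of the genes kept were called. Groups alone gave 2 at 2 weeks, 1 at 4 weeks, 1 from 24 to 48 hours, 0 from 48 hours to 1 week and 0 from 1 to 4 weeks. Without the doubted arrays the counts were 4 at 1 hour, 2 at 4 weeks, 6 from 48 hours to 1 week and 10 from 1 to 4 weeks. There 4.3%, 5.85%, 3.9% and 4.14% of all genes were called. Without the arrays with Xist signal the count was 1 from 24 to 48 hours, where 3.3% of all genes were called.

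With the replicate block the counts were 5 from 12 to 24 hours and 2 from 24 to 48 hours, where 17.5% and 3.83% of all genes were called. The other counts stayed within 1.5 times. The arrays share only a number (48 of 224 same-numbered pairs of arrays correlated over 0.1).

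Leaving out 1 array at a time gave 0 to 3 at 1 hour, 11 to 16 at 6 hours, 16 to 19 at 12 hours, 17 to 20 at 24 hours, 6 to 12 at 48 hours, 10 to 13 at 3 days, 9 to 13 at 4 days, 12 to 22 at 1 week, 0 to 5 at 2 weeks, 4 to 9 at 4 weeks, 12 to 17 at 3 months, 7 to 11 from 1 to 6 hours, 6 to 12 from 12 to 24 hours, 0 to 4 from 24 to 48 hours, 0 to 3 from 48 hours to 1 week and 0 to 3 from 1 to 4 weeks; the F test called 29 to 36. Under a filter on dim genes, which kept genes by their highest group mean, the median change of the genes kept was up to 0.23 (1 week). Under median centring the median change of all genes was up to 0.15 (1 week). The number of arrays limits the precision, most of all at 2 weeks.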

Other observations

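The clock genes, which set daily rhythms in liver and act on many genes of fat oxidation, were described by 16 genes. At 3 months 6 rose and 1 fell against the controls, where 16.7% and 13.4% of all genes did. Dbp, an output of the clock, was at 2.38 ± 0.91 (limma adjusted p = 0.042) and Per3 at 1.54, and Npas2 was lower at -0.34. At 12 hours 4 rose and 2 fell, where 17.9% and 12% of all genes did. Cry1 was at 1.39, Per2 at 1.35 and Nr1d1, a repressor within the clock, at -1.38. From 1 to 6 hours Dbp fell by 3.99 (adjusted p = 0.0028). The sources used here give no time of day for the sampling, so time after the operation and time of day cannot be told apart.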
